A study of Mus musculus with 6 samples.

Results

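The 37 genes described here carry the rod light response and the identity of photoreceptors. They were taken by symbol from the deposited count table of 55376 genes, as the rod phototransduction cascade, the outer segment structure and the photoreceptor transcription factors, by a rule that uses no measured value, though the genes were proposed with earlier results of these data known. All 37 passed the filter on low counts and are among the 18547 genes tested. The genes were measured by RNA-seq in whole retinas of 6 mice aged 240 days, 3 wild-type (WT) and 3 lacking Wfs1 (Wfs1-KO, genotype Wfs1-/-). The study aimed at events that come before changes of structure in this mouse model of Wolfram syndrome. At this age it reports thinner optic nerve myelin in mutant mice, without a change in the number of axons or of ganglion cells. It also reports a delayed electroretinogram response, slower conduction to the visual cortex and lower visual acuity in mutant mice of this age. The mutant mice carry the constitutive Wfs1exon8del allele, which removes exon 8 of Wfs1 in every cell type, so that rods, glia and all other retinal cells lack it together. The labels give the strain of both genotypes as C57x129, while the methods name a C57BL/6 J background, and the labels name Trizol for the RNA where the methods name a column kit. Each library came from a different mouse, and no animal received a treatment. Retinas are named by genotype and replicate number, and lists of 3 values follow the order of replicates 1, 2 and 3.

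Rods detect dim light, which activates the G protein transducin in their outer segments. Transducin releases the catalytic subunits of phosphodiesterase 6 from their inhibitor, the enzyme cleaves cyclic GMP, and cation channels of the outer segment close. Kinase, arrestin and a GTPase-accelerating complex end the signal, while guanylate cyclases restore cyclic GMP as calcium drops. The transcription factors CRX, NRL and NR2E3 set the rod programme.

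The promoters of these genes were read for the core letters that CRX is known to bind, because the genes are described as one programme. RefSeq windows from 250 bases before to 50 bases after the start site (assembly GRCm38.p6, the mm10 build) matched 30 of the 37 genes in 34 windows, and Rcvrn, Gnat1, Rgs9bp, Pde6a, Reep6, Pde6g and Guca1b had none. The letters TAATCC, or GGATTA on the other strand, stood in 15 of the 34 windows (44.1%), against 7.06% of 32851 windows of the same length over all genes. Counted by gene, 15 of 30 members held it, as did 10 of 34 other photoreceptor and cone genes with a window. By gene the NRL motif TGCTGA was in 8 of 30 members and 13 of those 34. The NRL motif and the NR2E3 motif AAGTCA stood in 23.5% and 8.82% of the member windows and in 19.5% and 15.1% of all windows, each on either strand. The E-box CANNTG, which reads alike on both strands, stood in 73.5% of the member windows and 72.3% of all windows. Matches of different motifs may overlap in a window. The stretches below end at the base before the start site, run 5′ to 3′ on the strand of the gene, and have the CRX core in capitals. Aipl1 and Guca1a are shown as the genes with the smallest p-values in the comparison of all 6 retinas, Samd7 as the gene with the next lowest log2 fold change there, Cnga1 and Gngt1 as the genes highest in Wfs1-KO replicate 2 relative to the other mutant retinas, Gucy2f and Rgs9 as the lowest in it, and Crx as the gene of the factor itself.
Aipl1 (chr11:72037510-72037629, minus strand): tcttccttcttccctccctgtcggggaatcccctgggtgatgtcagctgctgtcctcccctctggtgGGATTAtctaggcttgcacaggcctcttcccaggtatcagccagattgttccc
Guca1a (chr17:47400607-47400726, minus strand): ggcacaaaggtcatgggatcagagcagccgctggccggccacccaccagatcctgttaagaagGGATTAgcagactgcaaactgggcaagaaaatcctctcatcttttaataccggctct
Samd7 (chr3:30746053-30746292, plus strand): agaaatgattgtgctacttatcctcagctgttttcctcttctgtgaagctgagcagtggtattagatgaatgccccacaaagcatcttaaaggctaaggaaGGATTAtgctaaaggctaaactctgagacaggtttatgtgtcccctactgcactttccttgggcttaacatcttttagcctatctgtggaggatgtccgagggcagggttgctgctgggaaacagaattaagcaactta
Cnga1 (chr5:72642753-72642992, minus strand): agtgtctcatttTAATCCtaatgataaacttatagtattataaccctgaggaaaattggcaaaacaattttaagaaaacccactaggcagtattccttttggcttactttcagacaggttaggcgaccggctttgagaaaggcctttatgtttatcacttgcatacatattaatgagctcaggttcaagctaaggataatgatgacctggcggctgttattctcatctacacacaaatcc
Gngt1 (chr6:3993888-3994007, plus strand): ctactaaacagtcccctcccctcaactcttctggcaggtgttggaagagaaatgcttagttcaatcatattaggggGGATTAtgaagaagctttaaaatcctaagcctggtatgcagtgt
Gucy2f (chrX:142196937-142197056, minus strand): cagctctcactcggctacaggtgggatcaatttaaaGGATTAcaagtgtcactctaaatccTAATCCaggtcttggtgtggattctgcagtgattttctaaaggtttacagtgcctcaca
Rgs9 (chr11:109298182-109298301, minus strand): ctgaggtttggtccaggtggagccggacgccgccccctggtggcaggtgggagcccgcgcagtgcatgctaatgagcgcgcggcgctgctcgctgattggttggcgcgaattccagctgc
Crx (chr7:15879956-15880075, minus strand): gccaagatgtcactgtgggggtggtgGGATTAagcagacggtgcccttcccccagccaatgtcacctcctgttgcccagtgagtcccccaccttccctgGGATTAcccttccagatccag
In these stretches the core began 53 bases before the start site in Aipl1, 57 in Guca1a, 139 in Samd7, 228 in Cnga1 and 44 in Gngt1. Gucy2f had it at 84 and 59 bases and Crx at 94 and 21 bases. The Rgs9 window held no TAATCC and had an NRL motif 147 bases before the start. A match is a description of the letters and not of a bound site.

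All 6 libraries held rod transcripts at high levels. Levels are given as CPM, counts per 1000000 with library sizes adjusted by TMM factors. The members took 7.38% to 7.90% of all counts in WT and 6.42% to 6.86% in Wfs1-KO libraries. Total counts were between 17916885 and 101334381 per library, and the lowest count of any member in any retina was 369, for Guca1a, so counting error is small here beside the differences between retinas. Wfs1 itself had 64.9, 61.4 and 69.9 CPM in WT and 9.63, 0.900 and 11.5 CPM in Wfs1-KO, lower in every mutant retina. Wfs1-KO replicate 2 stood apart, with a mean correlation of 0.918 to the other libraries across genes, where the others had 0.962 to 0.971. In that library the summed CPM of the 8 microglia markers was 278 against 69.7 to 90.3 in the other 5, of the 5 blood markers 480 against 12.3 to 41.2 and of the 10 pigment epithelium markers 505 against 54.5 to 171, with no marker of these at 0. The 10 Mueller glia markers summed to 8001 CPM in it against 5372 to 6557. Their median log2 ratio of this library to the mean of Wfs1-KO replicates 1 and 3 was -0.04. It ranged from -1.16 to 2.30, so the higher sum was not shared by all of these markers. The part of these cell types in the results was not tested. The counts and most fold changes are therefore given with and without that retina.

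Ordered by level per 1000 exon bases in WT, transducin alpha led. Gnat1 had a mean of 6841 CPM per 1000 bases. The next were the arrestin gene Sag at 2663, Prph2 of the disc rim at 2556, the phosphodiesterase inhibitor Pde6g at 2421 and transducin beta Gnb1 at 2417. The lowest were Impg2 at 65.0, Guca1a at 27.5 and Gucy2f at 26.7 CPM per 1000 bases, where the place of Guca1a is uncertain because most of its exon bases are shared with another gene. Of the 36 pairs of neighbours in this order, 7 were separate, in that every WT retina of one gene lay above every WT retina of the next. The other pairs overlapped, Sag and Prph2 among them, so their order is within the spread of the WT retinas. Across the 3 WT retinas the highest CPM of a member was a median of 1.28 times its lowest. The ratio was under 1.5 in 34 of 37 genes, with 1.02 for Nxnl1 at one end and 2.49 for Gucy2f at the other.

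**Figure D1:**
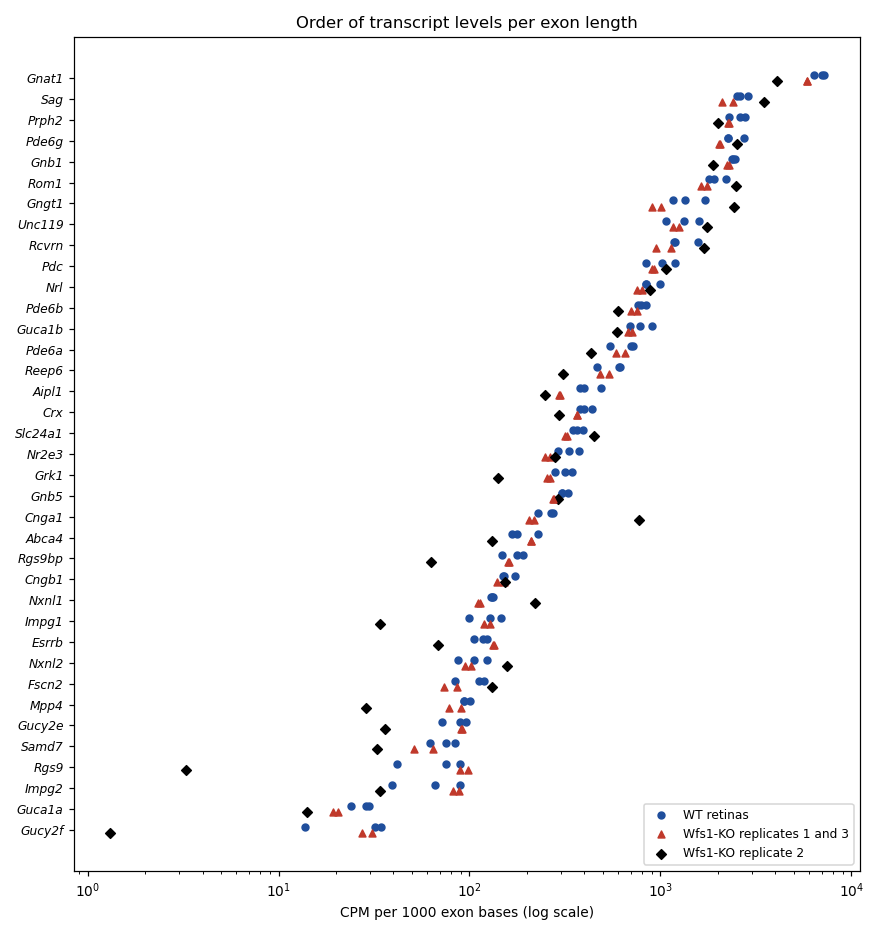
Levels of the 37 genes in each retina as CPM per 1000 exon bases on a log axis, ordered by the WT mean. Circles are WT retinas, triangles are Wfs1-KO replicates 1 and 3 and diamonds are Wfs1-KO replicate 2, whose Rgs9 and Gucy2f points lie far to the left of the others.

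No member passed the threshold in the comparison of genotypes. With edgeR's quasi-likelihood test on all 6 retinas, 0 of 37 had an adjusted p under 0.05 after Benjamini-Hochberg adjustment over all genes, where 0.0108% of all tested genes passed. At an unadjusted p under 0.05 there were 2 members (5.41% of them, against 2.81% of all tested genes), Guca1a and Aipl1, both lower in Wfs1-KO, a direction that 0.566% of all genes had. DESeq2 and limma-voom also gave 0 members past the adjusted threshold, where 0.282% and 0.0108% of all genes passed, and the same 2 members at the unadjusted one, against 4.04% and 2.16% of all genes. The log2 fold change (Wfs1-KO over WT) was below 0 in 30 of 37 members, against 47.2% of all tested genes. Its median over the members was -0.15 and its range -0.62 to 0.63, while the median of all tested genes was 0.02. In bulk tissue, fewer rods and less of a transcript per rod cannot be told apart.

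Without Wfs1-KO replicate 2, edgeR again placed 0 of 37 members past the adjusted threshold, where 0.125% of all genes passed, and the smallest adjusted p of a member was 0.485, for Aipl1. At an unadjusted p under 0.05 there were 9 members (24.3%, against 5.19% of all genes): Gnat1, Gngt1, Cnga1, Grk1, Guca1a, Fscn2, Nr2e3, Samd7 and Aipl1. All 9 were lower in Wfs1-KO, a direction that 2.39% of all genes had. In the same 5 retinas DESeq2 and limma-voom placed 0 members past the adjusted threshold, against 0.49% and 0.104% of all genes. At an unadjusted p under 0.05 DESeq2 gave 6 members, against 4.94% of all genes, and limma-voom 9, against 6.89%. A log2 fold change below 0 was found in 31 members, against 50.1% of all genes, and the median was -0.19. Among members the log2 fold change without that retina moved with exon length (Spearman's correlation 0.62 across 37 genes, which are not independent and share their libraries), shorter genes having the lower values. Over the 10333 tested genes with a mean of at least 10 CPM the same correlation was 0.50, and the part of exon length in the result was not tested. Markers of some other cells moved as well without replicate 2, while others did not. The 10 pigment epithelium markers summed to 93.4 and 54.5 CPM in Wfs1-KO replicates 1 and 3 against 119 to 171 CPM in WT, with 9 of 10 at a log2 fold change below 0, 6 at an unadjusted p under 0.05 and 1, Lrat, past the adjusted threshold (adjusted p = 0.0467 by edgeR). The 10 ganglion cell markers summed to 950 and 1070 CPM against 1109 to 1295 CPM, the 10 Mueller glia markers to 5372 and 5674 against 5859 to 6557 CPM, and the 11 bipolar cell markers to 2018 and 1837 against 1597 to 1708 CPM. The 11 amacrine and horizontal cell markers, at 1584 and 1630 CPM, lay inside the WT range of 1562 to 1637 CPM. The 5 blood markers, at 22.7 and 20.1 CPM, lay inside that of 12.3 to 41.2 CPM. The part of all these markers in the members' values was not tested.

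**Figure D2:**
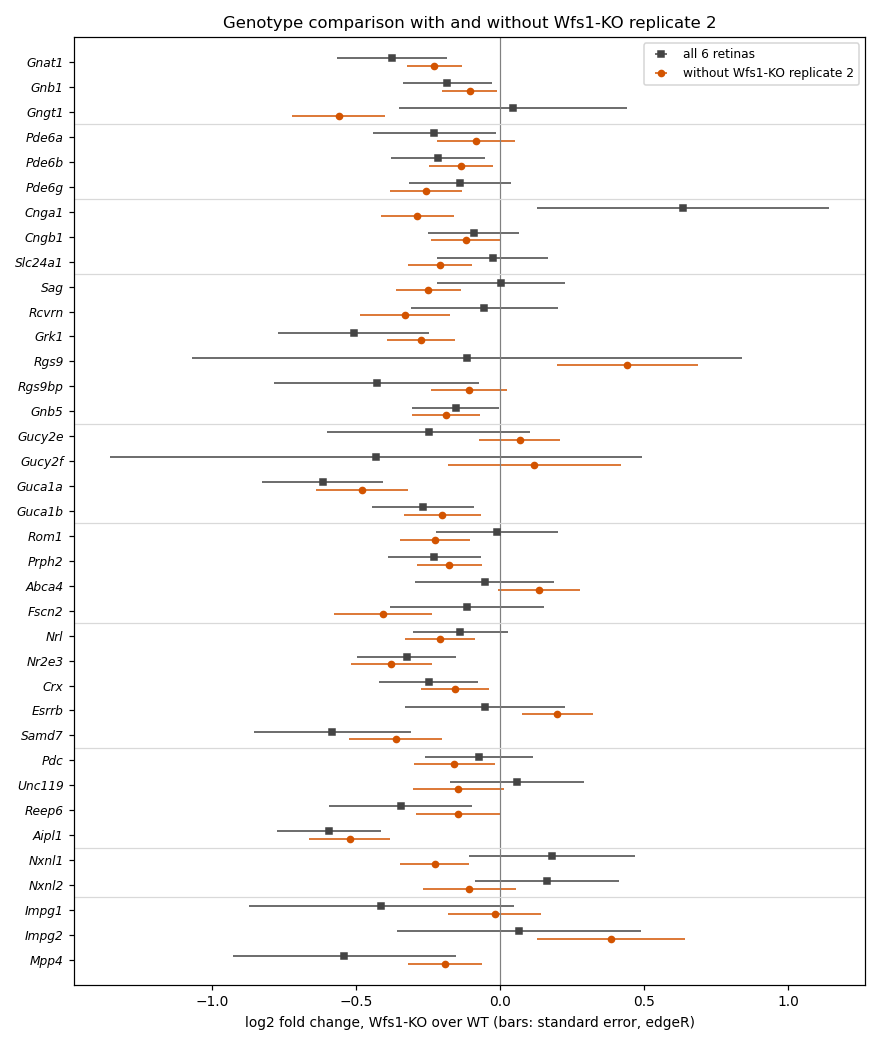
The log2 fold change of each member, Wfs1-KO over WT, from edgeR, with bars of 1 standard error. Squares are the comparison of all 6 retinas and circles the comparison without Wfs1-KO replicate 2; 30 squares and 31 circles lie left of 0, and the bars shrink from a median of 0.23 to 0.13.

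The transcripts summed over the 37 genes were lower in mutant retinas. The sum was 78190, 73856 and 75896 CPM in WT and 66992, 66104 and 67702 CPM in Wfs1-KO, and the genotypes did not overlap. WT retinas had a mean of 75981 ± 2168 CPM and mutant retinas one of 66933 ± 800.5 CPM (SD, n = 3 each), which is 11.9% lower. Without Gnat1, the most abundant member, the difference was 8.99%, with 59106 to 61411 CPM in WT and 53322 to 56577 CPM in Wfs1-KO. Leaving out Wfs1-KO replicate 2, the sum of all members was 11.4% lower. The sum is led by few genes, and no test was made of it. Relative to the mean of the WT retinas, the median member stood at -0.16 log2 units in Wfs1-KO replicate 1, with 31 of 37 below 0, and at -0.17 in replicate 3, with 29 below 0. In replicate 2 the median was -0.40 with 25 below 0, and the SD over members was 1.17, where the other 5 retinas had 0.18 to 0.26.

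**Figure D3:**
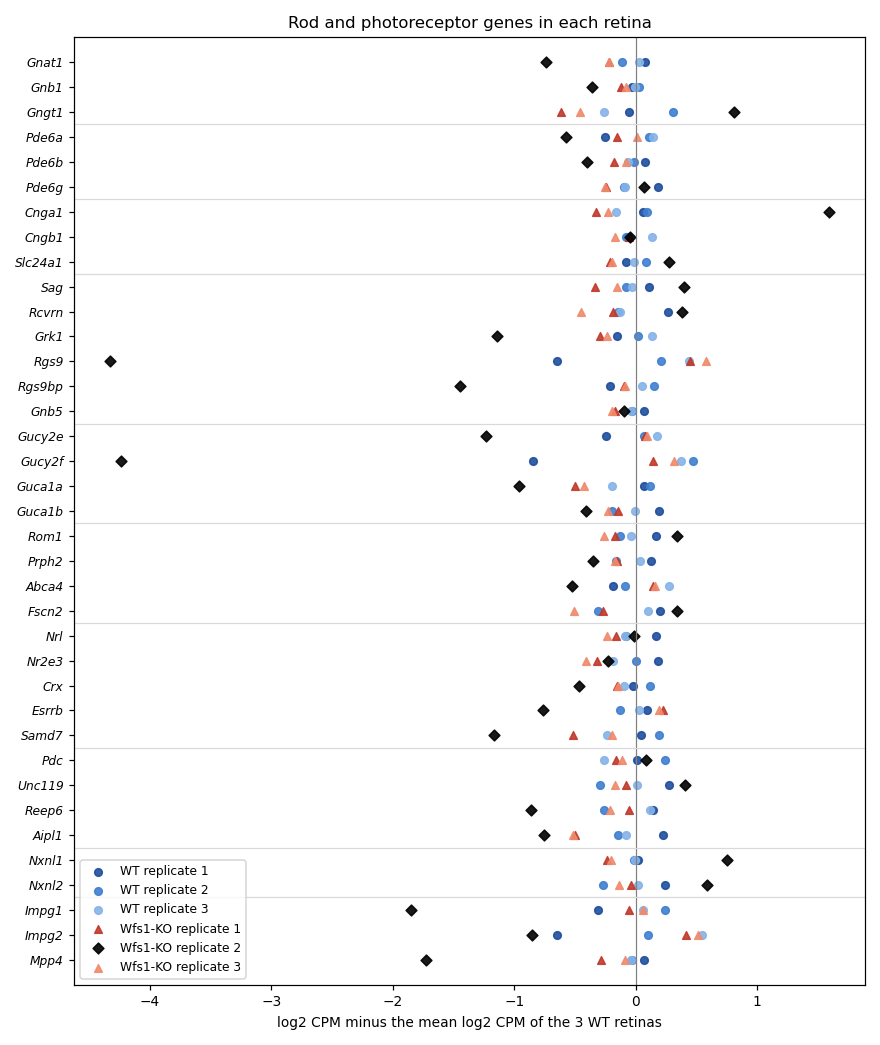
The log2 CPM of each member in each retina minus its mean over the 3 WT retinas, with grey lines between the roles. Circles are WT, triangles Wfs1-KO replicates 1 and 3 and black diamonds Wfs1-KO replicate 2, which spans -4.33 to 1.60 while no other retina is more than 1 log2 unit from 0.

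Transducin showed lower alpha and beta subunit levels in each mutant retina. Gnat1, on chromosome 9, had 16780, 14750 and 16251 CPM in WT and 13670, 9527 and 13643 CPM in Wfs1-KO. All mutant values lay below all WT values, and replicate 2 was the lowest. Its log2 fold change of -0.38 had a standard error of 0.19 and an unadjusted p of 0.0875. Leaving out replicate 2 gave -0.23 (standard error 0.10, unadjusted p = 0.0375, adjusted p = 0.902 by edgeR's quasi-likelihood test after Benjamini-Hochberg adjustment). Gnb1, the beta subunit, had 7462, 7750 and 7576 CPM in WT and 6981, 5912 and 7189 CPM in Wfs1-KO. Its values did not overlap either, and the log2 fold changes were -0.18 (standard error 0.15) and -0.11 (standard error 0.09). Gngt1, the gamma subunit, had 1585, 2033 and 1372 CPM in WT and 1072, 2884 and 1194 CPM in Wfs1-KO. Mutant replicates 1 and 3 lay below every WT retina and replicate 2 above every one, so the log2 fold change was 0.05 (standard error 0.39) with it and -0.56 (standard error 0.16, unadjusted p = 0.00575, adjusted p = 0.572) without it.

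The 3 phosphodiesterase 6 transcripts had log2 fold changes between -0.23 and -0.14. Pde6b, a catalytic subunit, had 2342, 2203 and 2135 CPM in WT and 1963, 1688 and 2104 CPM in Wfs1-KO. The genotypes did not overlap, though mutant replicate 3 lay just under the lowest WT retina, and the log2 fold change was -0.21 (standard error 0.16). The other catalytic subunit, Pde6a, had a log2 fold change of -0.23 and the inhibitory subunit Pde6g one of -0.14, and both overlapped between genotypes. Without replicate 2 the values for Pde6a, Pde6b and Pde6g were -0.08, -0.14 and -0.26.

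Of the outer segment channel and its exchanger, the channel's alpha subunit was set apart in 1 retina. Cnga1 had 1214, 1241 and 1039 CPM in WT and 926, 3508 and 991 CPM in Wfs1-KO. Replicate 2 was 3.66 times the mean of the other mutant retinas, which both lay below every WT retina. With it the log2 fold change was 0.63 (standard error 0.51), the highest of the members, and -0.29 (standard error 0.13, unadjusted p = 0.0449, adjusted p = 0.938) without it. Cngb1, the partner subunit, had 1083 to 1253 CPM in WT and 1013 to 1107 CPM in Wfs1-KO, replicate 2 included. Slc24a1, the sodium-calcium-potassium exchanger that extrudes calcium, had log2 fold changes of -0.03 and, without replicate 2, -0.21.

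Genes that end the light response were mixed. Sag, the rod arrestin, had 4965, 4348 and 4500 CPM in WT and 3651, 6056 and 4135 CPM in Wfs1-KO. Replicate 2 was the highest of all 6 and the other mutant retinas were the lowest, so the log2 fold change came to 0.00 (standard error 0.22), or to -0.25 (standard error 0.11) with replicate 2 left out. Grk1, a receptor kinase of photoreceptors, had 2092, 2351 and 2555 CPM in WT and 1902, 1053 and 1970 CPM in Wfs1-KO. No mutant retina reached the lowest WT retina. For Grk1 the log2 fold change was -0.51 (standard error 0.26, unadjusted p = 0.0924), and -0.27 (standard error 0.12, unadjusted p = 0.0428, adjusted p = 0.922) without replicate 2. Gnb5, part of the GTPase-accelerating complex, had 764, 714 and 709 CPM in WT and 648, 681 and 639 CPM in Wfs1-KO. Its genotypes did not overlap and replicate 2 was close to the other mutant retinas, with log2 fold changes of -0.15 and -0.19. Of its exon bases 20.2% are shared with Gm19531 on the opposite strand, which had 1.97 CPM. Rcvrn, the calcium sensor that inhibits the kinase, had log2 fold changes of -0.06 and -0.33.

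Rgs9, the catalytic member of the GTPase-accelerating complex, was chosen for description after its values were seen, as were Gucy2f, Rgs9bp and Impg2. Rgs9 had 254, 460 and 543 CPM in WT and 544, 19.9 and 598 CPM in Wfs1-KO. Replicate 2 held a 28.7 times lower level than the mean of the other mutant retinas, and these in turn lay above every WT retina. With all retinas the log2 fold change was -0.11 and its standard error of 0.95 the largest of the members, and it was 0.44 with a standard error of 0.25 without replicate 2. Rgs9bp, which anchors the complex to the disc membrane, had 978, 1255 and 1172 CPM in WT and 1055, 415 and 1061 CPM in Wfs1-KO. Only replicate 2 lay outside the WT range, while Gnb5 of the same complex had no low value there. With and without that retina the log2 fold change of Rgs9bp was -0.43 and -0.11.

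The guanylate cyclases showed the same split between retinas. Gucy2e had 601, 749 and 804 CPM in WT and 752, 303 and 759 CPM in Wfs1-KO. Without replicate 2 its log2 fold change was 0.07 (standard error 0.14), against -0.25 (standard error 0.35) with it. Gucy2f, the X-linked cyclase, had 112, 278 and 261 CPM in WT and 222, 10.7 and 251 CPM in Wfs1-KO. The mean of mutant replicates 1 and 3 was 22.2 times the level of replicate 2, and WT replicate 1 was also under the rest. WT replicate 3 was the only library with Y-linked Ddx3y, at 1137 counts against at most 2, and had 4 counts of Xist against at least 10583, and its Gucy2f lay between the values of the other retinas.

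Of the calcium sensors that switch the cyclases on, Guca1a had the lowest log2 fold change of the members. It had 25.1, 26.0 and 20.9 CPM in WT and 16.9, 12.3 and 17.8 CPM in Wfs1-KO. Every mutant retina lay below every WT retina, and the means were 24.0 ± 2.70 and 15.7 ± 2.95 CPM (SD, n = 3 each). For Guca1a this gave -0.62 on the log2 scale (standard error 0.21, unadjusted p = 0.0209, adjusted p = 0.979 by edgeR's quasi-likelihood test), and -0.48 (standard error 0.16, unadjusted p = 0.0122, adjusted p = 0.709) without replicate 2. Its exons share 731 bases, 83.7% of their length, with AC112683.2 on the same strand, which had 0 counts in all 6 retinas. Counting that drops reads of shared bases would understate Guca1a, so its level is uncertain. Guca1b, the sister sensor, had 1683 to 2195 CPM in WT and 1445 to 1733 CPM in Wfs1-KO, with log2 fold changes of -0.27 and -0.20, and the genotypes overlapped.

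Genes of the outer segment disc and its upkeep overlapped between genotypes in all 4 cases. Prph2, the disc rim protein, had 7410, 6065 and 6961 CPM in WT and 6092, 5336 and 6021 CPM in Wfs1-KO. Mutant replicate 1 lay above WT replicate 2, so the genotypes overlapped, and the log2 fold changes were -0.23 (standard error 0.16) and, without replicate 2, -0.18 (standard error 0.11). Rom1, its partner in the rim, had -0.01 and, without replicate 2, -0.23. Abca4, which moves retinal-bound lipid across the disc membrane, had -0.05 and 0.13. Fscn2, an actin cross-linker of photoreceptors, had 205, 144 and 191 CPM in WT and 147, 226 and 125 CPM in Wfs1-KO. Its mutant values lay inside, above and below the WT range in turn, and the log2 fold change was -0.11 (standard error 0.27), and -0.41 (standard error 0.17, unadjusted p = 0.0373, adjusted p = 0.901) without replicate 2.

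In the comparison of all 6 retinas the 5 transcription factors and regulators had log2 fold changes below 0, and none passed the adjusted threshold. Nrl, which commits precursors to the rod fate, had 2501, 2111 and 2092 CPM in WT and 1996, 2206 and 1889 CPM in Wfs1-KO. Replicate 2 lay inside the WT range and the other mutant retinas below it, with log2 fold changes of -0.14 (standard error 0.17) and -0.21 (standard error 0.12). Nr2e3, the NRL target that represses cone genes in rods, had 760, 673 and 589 CPM in WT and 537, 574 and 505 CPM in Wfs1-KO. The genotypes did not overlap, with replicate 2 the highest of the mutant retinas here. Its log2 fold change was -0.32 (standard error 0.17, unadjusted p = 0.0996), and -0.38 (standard error 0.14, unadjusted p = 0.0213, adjusted p = 0.813) without replicate 2. Crx, shared by rods and cones, had 1212, 1335 and 1150 CPM in WT and 1107, 892 and 1115 CPM in Wfs1-KO. Again no mutant retina reached the lowest WT retina, and the log2 fold changes were -0.25 (standard error 0.17) and, without replicate 2, -0.16 (standard error 0.12).

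Samd7, a polycomb-associated repressor of non-rod genes, had 237, 263 and 196 CPM in WT and 161, 103 and 202 CPM in Wfs1-KO. Mutant replicate 3 lay above the lowest WT retina. All 6 retinas gave a log2 fold change of -0.58 (standard error 0.27, unadjusted p = 0.0675), and -0.36 (standard error 0.16, unadjusted p = 0.0474, adjusted p = 0.957) without replicate 2. Esrrb, a nuclear receptor needed for rod survival, had -0.05 with all retinas, and without replicate 2 it was 0.20, both remaining mutant retinas lying above every WT retina. Cone genes, which NR2E3 and SAMD7 help to hold down in rods, gave 0 of 14 past the adjusted threshold by edgeR, DESeq2 and limma-voom. At an unadjusted p under 0.05 there were also 0, against 2.81%, 4.04% and 2.16% of all genes. Their median log2 fold change by edgeR was -0.06. The 14 cone genes summed to 1927, 1864 and 1896 CPM in WT and 1779, 2500 and 1889 CPM in Wfs1-KO. Replicate 2 over the mean of the other mutant retinas had a median of 0.06 log2 units in them and ranged from -1.12 to 2.07. Without replicate 2 the cone median was -0.06 as well. Of the 14 genes, 1 then had an unadjusted p under 0.05 by edgeR, against 5.19% of all genes. This was Arr3, named after its value was seen, with an unadjusted p of 0.0154 and a log2 fold change of -0.45.

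Aipl1, the chaperone that phosphodiesterase 6 needs to fold and assemble, had the smallest unadjusted p of the members. It had 1130, 877 and 918 CPM in WT and 687, 574 and 677 CPM in Wfs1-KO. All mutant retinas lay below all WT retinas, and the means were 975 ± 136 and 646 ± 62.8 CPM (SD, n = 3 each), 33.7% lower. The log2 fold change was -0.59 (standard error 0.18, unadjusted p = 0.0126), and the adjusted p was 0.979 by edgeR's quasi-likelihood test and 0.360 by DESeq2. Without replicate 2 it was -0.52 (standard error 0.14, unadjusted p = 0.00364), with an adjusted p of 0.485 by edgeR and 0.143 by DESeq2. The phosphodiesterase 6 subunit genes Pde6a, Pde6b and Pde6g had log2 fold changes between -0.23 and -0.14, and the difference between genes was not tested.

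The other chaperones and carriers were closer to the WT level. Pdc, which binds transducin beta-gamma, had 3411, 3984 and 2824 CPM in WT and 3015, 3579 and 3115 CPM in Wfs1-KO. All mutant values lay inside the WT range, with log2 fold changes of -0.07 (standard error 0.19) and, without replicate 2, -0.16 (standard error 0.14). Unc119, which carries transducin alpha by its lipid, had log2 fold changes of 0.06 and -0.15. Reep6, a trafficking protein of the rod endoplasmic reticulum, had -0.34 and -0.15, with 1030 to 1361 CPM in WT and 681 to 1189 CPM in Wfs1-KO.

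The thioredoxin-like survival factors were highest in the deviating retina. Nxnl1, which encodes a factor that rods release to keep cones alive, had 362, 354 and 357 CPM in WT and 304, 603 and 310 CPM in Wfs1-KO. The WT values were the tightest of any member. Replicates 1 and 3 lay below them and replicate 2 above, with log2 fold changes of 0.18 (standard error 0.29) and, without replicate 2, -0.23 (standard error 0.12). Nxnl2, its paralogue, had 144, 102 and 124 CPM in WT and 119, 184 and 111 CPM in Wfs1-KO. The values overlapped, with 0.16 (standard error 0.25) and -0.11 (standard error 0.16).

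Genes of the matrix around photoreceptors and of their cell contacts were lowest in the same retina. Impg1, a proteoglycan of that matrix, had 360, 529 and 466 CPM in WT and 430, 124 and 465 CPM in Wfs1-KO. Apart from replicate 2 the mutant values lay inside the WT range, and the log2 fold change went from -0.41 (standard error 0.46) to -0.02 (standard error 0.16) when it was left out. Impg2, the other proteoglycan, had 272, 456 and 620 CPM in WT and 568, 235 and 607 CPM in Wfs1-KO. WT replicate 1 and Wfs1-KO replicate 2 were the low retinas of their groups, and the log2 fold changes were 0.07 and, without replicate 2, 0.38. Mpp4, a scaffold protein of photoreceptor junctions and terminals, had 315, 293 and 292 CPM in WT and 247, 90.6 and 282 CPM in Wfs1-KO. No mutant retina reached the lowest WT retina, and the log2 fold changes were -0.54 (standard error 0.39) and -0.19 (standard error 0.13). Of its exon bases 74.5% are shared with G730003C15Rik on the opposite strand, at 2.15 CPM, so its level is uncertain.

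Groups that did not overlap were thus found in 10 of 37 members, Gnat1, Gnb1, Pde6b, Grk1, Gnb5, Guca1a, Nr2e3, Crx, Aipl1 and Mpp4, with WT the higher, a pattern that 3.94% of all tested genes had. In the opposite direction there were 0 members, against 5.01% of all genes. Without Wfs1-KO replicate 2 there were 19 members lower, against 11.2% of all genes, and 2 higher, Rgs9 and Esrrb, against 11.4%. Of 33 photoreceptor genes outside the members, 0 passed the adjusted threshold by edgeR, DESeq2 or limma-voom. The shares of all genes that passed were 0.0108%, 0.282% and 0.0108%. At an unadjusted p under 0.05 there were 1 (3.03%), 2 and 1 of the 33, against 2.81%, 4.04% and 2.16% of all genes. The gene found by edgeR, Rdh12, a retinol dehydrogenase of photoreceptors named after its value was seen, had 398, 398 and 384 CPM in WT and 296, 264 and 314 CPM in Wfs1-KO. The genotypes did not overlap, and the log2 fold change was -0.43 (standard error 0.16, unadjusted p = 0.0283), or -0.37 (standard error 0.12, unadjusted p = 0.0113) without replicate 2.

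Wfs1-KO replicate 2 departed from its group in both directions within the members. It lay below the other 5 retinas in 21 members (56.8%), against 36.8% of all tested genes, and above them in 10 (27.0%), against 38.4%. More than 2-fold from the mean of mutant replicates 1 and 3 were 9 members (24.3%), against 33% of all tested genes. Of these, 7 were lower, Rgs9, Rgs9bp, Gucy2e, Gucy2f, Impg1, Impg2 and Mpp4, and 2 higher, Gngt1 and Cnga1, where 15.4% and 17.6% of all genes were. Of the 18547 tested genes 18041 had counts in every retina, while no member had fewer than 369 counts in any. The shares were not matched for level, so they are given side by side only.

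The departure moved with the length of the gene. Among the 15 members with at most 2500 exon bases the median of replicate 2 over the other mutant retinas was 0.32 log2 units, among the 12 of up to 5000 bases -0.27, and among the 10 longer ones -1.14. Over the 37 members Spearman's correlation between this value and exon length was -0.62, and over the 10333 tested genes with a mean of at least 10 CPM it was -0.60. WT replicate 1 showed the same kind of relation, with a correlation of -0.80 between its departure from the other WT retinas and exon length in the members and -0.67 in those 10333 genes. Both departures were correlated across the 37 members (Pearson's r 0.77, a description over genes that share 6 libraries). Cnga1, with 4536 exon bases, went against the relation in replicate 2, and the short Guca1a, with 873, did as well. How exon length bears on these values was not tested.

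**Figure D4:**
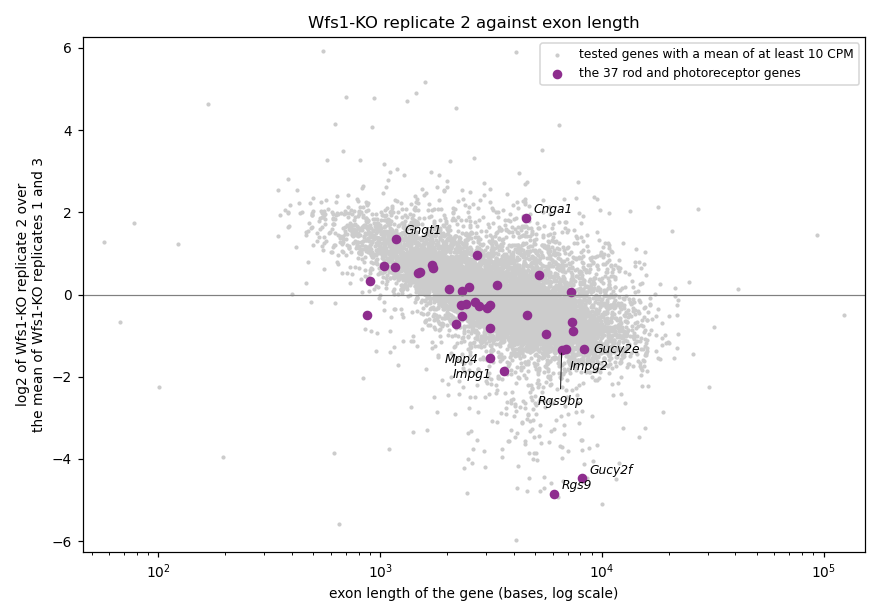
The log2 CPM of Wfs1-KO replicate 2 minus that of the mean of Wfs1-KO replicates 1 and 3, against exon length in bases on a log axis. Grey points are the 10333 tested genes with a mean of at least 10 CPM and purple points the 37 members, with the 9 members more than 2-fold away named; long genes lie lower.

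Ratios between partner transcripts of one complex were mostly outside the range of the other 5 retinas in replicate 2. Per exon base, Gngt1 stood to Gnat1 as 0.186, 0.271 and 0.166 in WT and as 0.154, 0.596 and 0.172 in Wfs1-KO. The channel ratio, Cnga1 over Cngb1, was 1.77, 1.83 and 1.32 in WT and 1.34, 5.05 and 1.56 in Wfs1-KO. In both ratios the mutant replicates 1 and 3 lay within or beside the WT values and replicate 2 far above them. For the disc rim, Prph2 over Rom1 was 1.26, 1.27 and 1.37 in WT and 1.31, 0.807 and 1.38 in Wfs1-KO. The ratio of Gnb5 to Rgs9 went furthest, with 7.84, 4.04 and 3.40 in WT and 3.11, 89.2 and 2.78 in Wfs1-KO, and that of Gucy2e to Gucy2f was 27.7 in replicate 2 against 2.62 to 5.23 elsewhere. Of the 11 ratios computed, replicate 2 was outside the other 5 retinas in 10. The exception was Pde6a over Pde6b, whose value of 0.722 lay within the 0.651 to 0.937 of the others. Among single genes, replicate 2 lay above the other 5 retinas in 38.4% of all tested genes and below them in 36.8%. The partners also differ in exon length, with which its departure moved, and a share over other pairs of genes is not given.

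**Figure D5:**
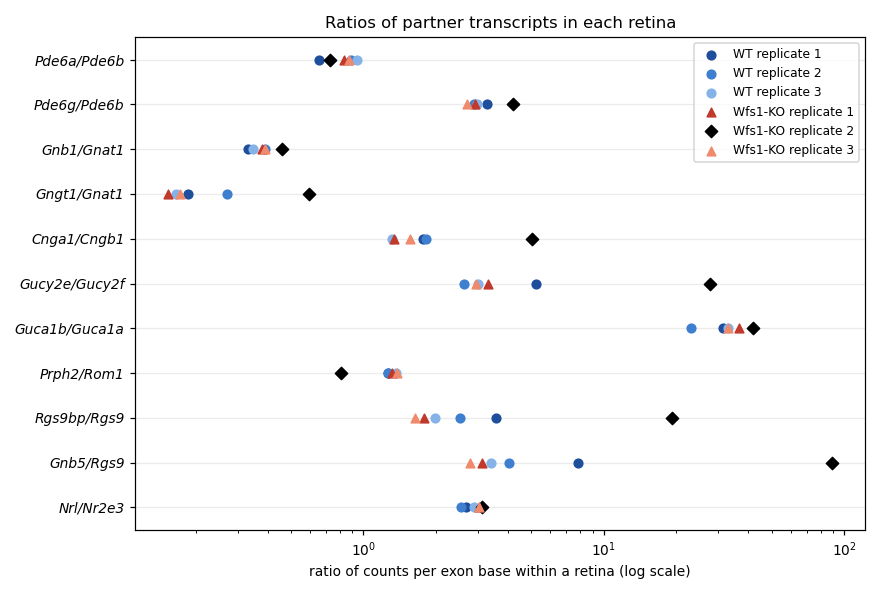
Ratios of counts per exon base between partner transcripts in each retina, on a log axis. Circles are WT, triangles Wfs1-KO replicates 1 and 3 and black diamonds Wfs1-KO replicate 2, which lies outside the other 5 retinas in every row but Pde6a/Pde6b.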

How the data were processed

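RNA-seq libraries from the whole retina were analysed, 3 of WT and 3 of Wfs1-KO mice. Per the labels and methods, the authors trimmed reads with Trimmomatic, mapped them to mm10 with STAR and counted reads on gene exons with featureCounts (versions 0.39, 2.5.3a and 1.6.4 in the submitters' processing notes, with other versions in the methods), and they deposited raw counts with the exon length of each gene. Counting is not stated to use strand. Columns were assigned by name, reading C as control and W as Wfs1 mutant since no key is given, and 2 further columns, whose names fitted none of the samples, were left out. Genotypes were compared in R 4.3.3 with edgeR 4.0.16 (TMM factors, filterByExpr, quasi-likelihood test, Benjamini-Hochberg adjustment over all tested genes, threshold 0.05). The study names DESeq2 on an RPKM matrix, which counts do not call for, so DESeq2 1.42.0 and limma 3.58.1 (voom) were run on counts as alternatives. CPM were computed with TMM factors, and ratios and levels between genes were divided by exon length. The p-values rest on the spread between these 6 mice. Sex markers were not balanced between genotypes, with 1137 counts of Ddx3y in WT replicate 3 and at most 2 elsewhere. Sex was not in the model, and its part in the results was not tested.

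The members and all lists were chosen with earlier results of these data known. Values in every retina were given for members with an unadjusted p under 0.05 with or without Wfs1-KO replicate 2, the 3 highest and 3 lowest log2 fold changes, those without overlap and 1 central member of each role. Annotation was GENCODE M21 (mm10) and promoter sequence was from RefSeq. Some genes are not reported here. The scripts were tested on simulated counts. Of 200 genes given an absolute log2 change of 2, edgeR recovered 129 with all 6 retinas and 152 without Wfs1-KO replicate 2. Of the genes called, 3.73% and 6.75% were false. Smaller changes, such as those of the members, were not simulated, so a lack of members past the threshold does not show that they are unchanged. Besides the main comparison 14 alternatives were planned and 2 added.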

Additional observations from a re-analysis of the deposited data

How the results depend on the processing

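No member passed the adjusted threshold under any of the 16 alternatives, and the smallest adjusted p was 0.143. The number of members with an unadjusted p under 0.05 was 2 in the main comparison and 0 to 9 with a retina left out (0 without WT replicate 1, 1 without WT replicate 2 and 9 without Wfs1-KO replicate 2). Without Wfs1-KO replicate 2 it was 6 with DESeq2 and 9 with limma-voom, settings added after seeing the data. Members without overlap, lower in Wfs1-KO, were 10, and 11 to 19 with a retina left out, and those higher were 0, and 0 to 2. Over all genes the number past the adjusted threshold was 2, against 52 with DESeq2, 9 with no filter, 0 to 24 with a retina left out, and 94 (DESeq2) and 20 (limma-voom) without Wfs1-KO replicate 2. The common dispersion of 0.128 dropped to 0.0322 without that retina, which limits what all 6 retinas can resolve.

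Deviations of same-numbered retinas correlated at -0.23, -0.11 and 0.08, and those of differently numbered retinas at -0.24 to 0.27. Deviations from a mean of 3 retinas are not independent, so they cannot show whether the replicate numbers pair the retinas. With the replicate block 1 member had an unadjusted p under 0.05, 0 passed the adjusted threshold and 1 gene of all passed.

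Of 592 member log2 fold changes under the alternatives, 528 kept direction and side of the threshold and 64 changed sign, in 18 members whose values were near 0 or moved with Wfs1-KO replicate 2. With a retina left out the ranges were -0.56 to 0.29 for Gngt1, -0.29 to 0.95 for Cnga1, -0.21 to 0.058 for Slc24a1, -0.25 to 0.14 for Sag, -0.33 to 0.11 for Rcvrn, -0.57 to 0.44 for Rgs9, -0.45 to 0.069 for Gucy2e, -0.90 to 0.12 for Gucy2f, -0.23 to 0.10 for Rom1, -0.16 to 0.13 for Abca4, -0.41 to 0.0499 for Fscn2, -0.21 to 0.20 for Esrrb, -0.21 to 0.052 for Pdc, -0.15 to 0.21 for Unc119, -0.23 to 0.35 for Nxnl1, -0.11 to 0.29 for Nxnl2 and -0.20 to 0.38 for Impg2. Values that changed sign elsewhere were as follows. For Gngt1 the value was -0.096 with limma-voom, -0.0036 with no filter and -0.088 with the replicate block. For Sag it was -0.0085 with DESeq2 and with RLE normalization, -0.034 with limma-voom, -0.035 with no filter and -0.0300 with the replicate block. Rom1 was at 0.012 with upper-quartile normalization and at 0.0087 with a minimum of 10 counts in every retina. Without Wfs1-KO replicate 2, DESeq2 and limma-voom gave -0.56 and -0.55 for Gngt1, -0.29 and -0.29 for Cnga1, -0.25 and -0.25 for Sag, 0.44 and 0.53 for Rgs9, 0.068 and 0.085 for Gucy2e, 0.12 and 0.24 for Gucy2f, 0.13 and 0.16 for Abca4, 0.20 and 0.20 for Esrrb, -0.15 and -0.13 for Unc119, -0.23 and -0.23 for Nxnl1, and -0.11 and -0.092 for Nxnl2, and limma-voom gave 0.00074 for Impg1. The cause was not tested beyond leaving out each retina.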
